A study of Mus musculus with 3 samples.

Results

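Semaphorins, plexins, neuropilins, ephrins and Eph receptors were followed through the cell types of the mouse soft palate at E14.5. They were taken as every gene whose symbol names a semaphorin, a plexin, Nrp1 or Nrp2, an ephrin or an Eph receptor and that had at least 20 unique molecular identifiers (UMIs, the tags that let copies of 1 captured transcript be counted once) over the 3 libraries. This gave 52 of the 32285 genes in the files: 7 class 3 semaphorins, 13 membrane semaphorins, 9 plexins, 2 neuropilins, 5 ephrin-A and 3 ephrin-B ligands, 8 EphA and 5 EphB receptors. Epha6, with 19 UMIs, lay under the limit.

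Class 3 semaphorins are secreted, bind a neuropilin and signal through a plexin, whereas most other semaphorins are held in the membrane and bind plexins directly. Ephrins are cell-surface ligands of the Eph receptor tyrosine kinases: A-type ephrins are tied to the membrane by a lipid anchor, and B-type ephrins cross it. Both systems steer axons, vessels and migrating neural crest cells through contact or short range, and ephrin-B1 and its EphB receptors are required for the palate to form.

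Soft palate tissue of C57BL/6 embryos was profiled as single cells in 2 control libraries and 1 Osr2-Cre;Alk5fl/fl library (the mutant), in which the TGF-beta type I receptor gene Tgfbr1, formerly Alk5, is deleted in Osr2-Cre cells, that is in the palatal mesenchyme and not in myogenic cells. By the study's account, controls were littermates that carried floxed Tgfbr1 on both alleles or on 1. The labels do not say how many embryos a library held, so p-values are not read as a spread between embryos. They set a difference between types against the scatter of the sums over these 3 libraries, the mutant among them. In the comparison of cell types, all types share the same estimate of this scatter, which also draws on the other genes. A p-value is thus not specific to the types it compares. The libraries held 22624711 UMIs in 2816 barcodes (control 1), 27814907 in 4067 (control 2) and 63505144 in 8690 (mutant), and 2117, 3821 and 8111 cells passed the filters. Pairs of libraries shared 18 to 49 barcodes. Tgfbr1 stood at 55.2, 63.1 and 49.8 CPM (counts scaled to the same total in every sum) in the palatal mesenchymal-like cells of control 1, control 2 and the mutant. Since 3' tags can lie outside the deleted part, this checks neither the deletion nor the labels.

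Cells were sorted into types by marker genes that include none of the 52, and the name of a type carries "-like" for that reason. Every marker of the epithelial, endothelial, macrophage, erythroid, glial, neuronal, myogenic and chondrocyte lists was highest in its own type, as were 6 of 7 mural and 5 of 7 palatal mesenchymal markers. In the order control 1, control 2 and mutant there were 1368, 2341 and 4410 palatal mesenchymal-like cells, 143, 143 and 245 epithelial-like, 18, 83 and 238 endothelial-like, 70, 102 and 97 myogenic-like and 46, 111 and 158 macrophage-like cells. Free RNA differed between the libraries: erythroid markers summed to 2217 to 3059 CPM over the compared types in control 1, to 676 to 862 CPM in control 2 and to 260 to 363 CPM in the mutant. Each level is the CPM of 1 type in 1 library, from pooled UMIs of its cells, given in the order control 1, control 2, mutant. Levels are compared between types for 1 gene, never between genes.

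**Figure D1:**
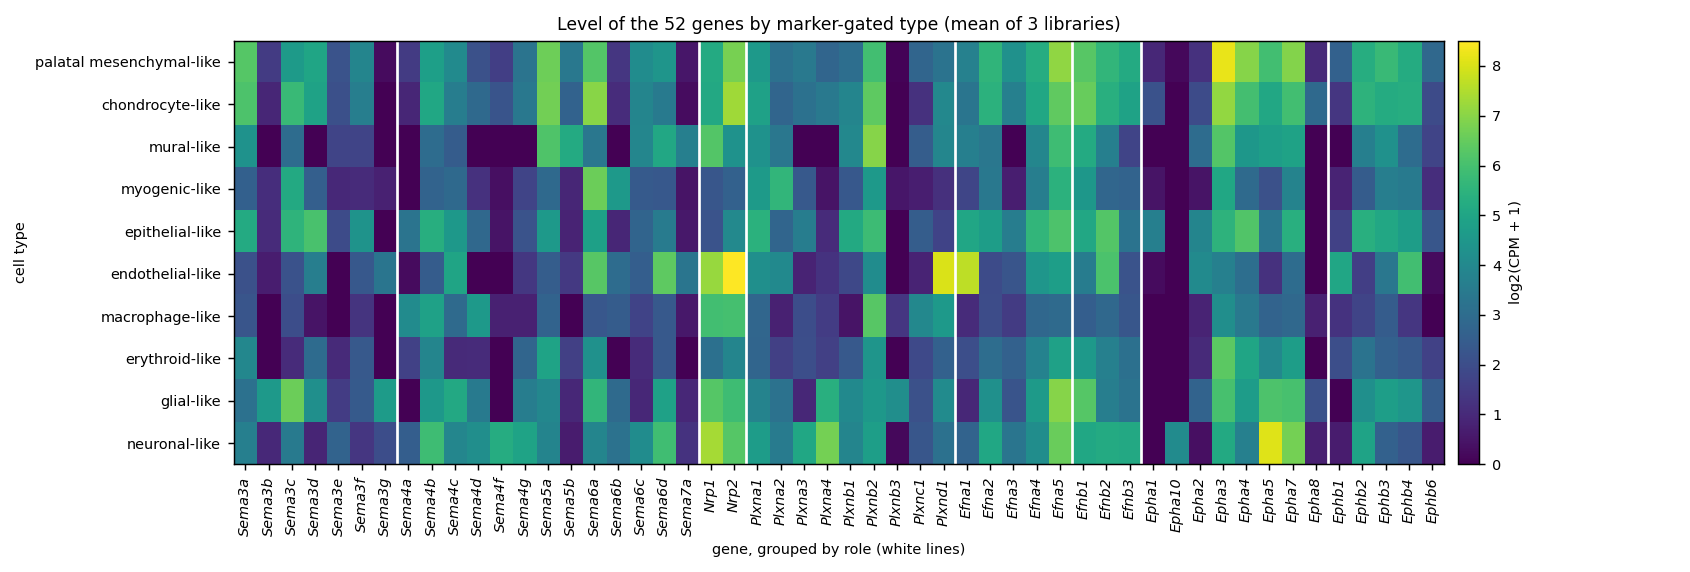
Level of each of the 52 genes (columns, grouped by role) in 10 marker-gated types (rows), as log2(CPM + 1) of the mean of 3 libraries. Epha3 and Epha4 are brightest in the palatal mesenchymal-like row, Epha5 in the neuronal-like row, and Nrp2, Plxnd1 and Efna1 in the endothelial-like row.

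The first comparison asked which of these ligands and receptors separate the palatal mesenchyme from the other tissues of the soft palate. Of the 52 genes, 38 had enough counts for the fit of cell types, an edgeR quasi-likelihood test with library as a term and Benjamini-Hochberg adjustment over 10275 genes (threshold 0.05). The 14 others were Epha1, Epha8, Epha10, Ephb6, Plxna4, Plxnb3, Sema3b, Sema3e, Sema3g, Sema4f, Sema4g, Sema5b, Sema6b and Sema7a. Among the 38 genes, 13 were lower than in palatal mesenchymal-like cells in all 4 of the types tested: the class 3 semaphorin Sema3a, the membrane semaphorins Sema5a and Sema6c, the ephrins Efna2, Efna3, Efna5, Efnb1 and Efnb3, and the receptors Epha3, Epha4, Epha5, Epha7 and Ephb3. Over all genes tested, 7.34% were lower in all 4 types, which share the palatal mesenchymal-like sums as their reference. Types that were not tested can match the mesenchyme. By the mean of the libraries Efnb1 and Sema5a were highest in chondrocyte-like cells, and Epha5 and Sema6c in neuronal-like cells. Of the 13 genes, only Epha3 and Epha4 were highest in the mesenchyme without overlap with the next type. The filter on low counts passes a gene with enough counts in 1 type. A gene can thus enter through the mesenchyme alone and then be lower elsewhere, which holds for all genes tested too. Likewise a gene that is low in the mesenchyme, such as Epha2 or Sema4a, can enter through the types where it is high. It can then be called higher there. A further 21 of the 38 were higher in at least 1 of the types, beside 49.3% of all genes. Both neuropilins were higher in endothelial-like and lower in epithelial-like and myogenic-like cells.

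Epha3, a receptor for A-type ephrins, stood at 192, 429 and 282 CPM in the palatal mesenchyme. It reached 21.0, 68.6 and 42.1 CPM in epithelial-like, 5.33, 20.8 and 10.2 CPM in endothelial-like and 25.3, 34.8 and 38.4 CPM in myogenic-like cells, so in each library every other fitted type lay below the mesenchyme. Its ligand gene Efna5 stood at 149, 152 and 105.5 CPM in the same cells, above the 72.8, 79.3 and 52.9 CPM of epithelial-like and the 57.2, 44.3 and 29.2 CPM of myogenic-like cells. Efna5 overlapped with the few glial-like cells, at 139.8, 144 and 89.4 CPM. Palatal mesenchymal-like cells held transcripts of both the ligand and its receptors, with Epha4 at 110.2, 158 and 106 CPM and Epha7 at 82.8, 164 and 119.5 CPM. Sema3a, which repels growing axons through neuropilin-1, stood at 81.3, 73.8 and 74.9 CPM in the mesenchyme and at 2.13 to 6.50 CPM in macrophage-like cells.

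Epithelial-like cells showed 9 genes higher and 20 lower among the 38, beside 17.3% of all genes higher and 22% lower (39.2% either way). The median difference was -0.66 on the log2 scale over these genes and -0.08 over all genes tested. Epha2, an Eph receptor of epithelia and vessels, was at 9.29, 14.8 and 17.3 CPM against 0.612, 1.27 and 2.01 CPM in palatal mesenchymal-like cells. The libraries of both types did not overlap, and the difference was 3.34 ± 0.36 (log2 ± SE, edgeR adjusted p = 9.6e-09). The other genes furthest above the mesenchyme were Sema4a (2.22 ± 0.43, adjusted p = 0.00013), the semaphorin 4D receptor Plxnb1 (2.17 ± 0.23, adjusted p = 4.6e-09), Efna1 (1.28 ± 0.22, adjusted p = 2.6e-05) and the secreted Sema3d (1.02 ± 0.19, adjusted p = 5.9e-05), all by edgeR.

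Plxnb1 stood at 41.6, 37.0 and 27.0 CPM in epithelial-like and at 6.87 to 8.39 CPM in palatal mesenchymal-like cells, and Sema3d at 45.5, 88.7 and 65.4 CPM against 20.3, 32.8 and 40.2 CPM. For Sema3d each library kept the order, although the epithelial level of control 1 lay close to the mesenchymal level of the mutant. Both neuropilins were low in epithelial-like cells: Nrp1, a receptor of class 3 semaphorins and VEGF, was at 2.44, 5.38 and 2.70 CPM (log2 difference -3.47 ± 0.29, edgeR adjusted p = 4.8e-11). Epha3 (-2.90 ± 0.20) and Epha5 (-2.87 ± 0.25) were the other genes furthest below the mesenchyme.

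**Figure D2:**
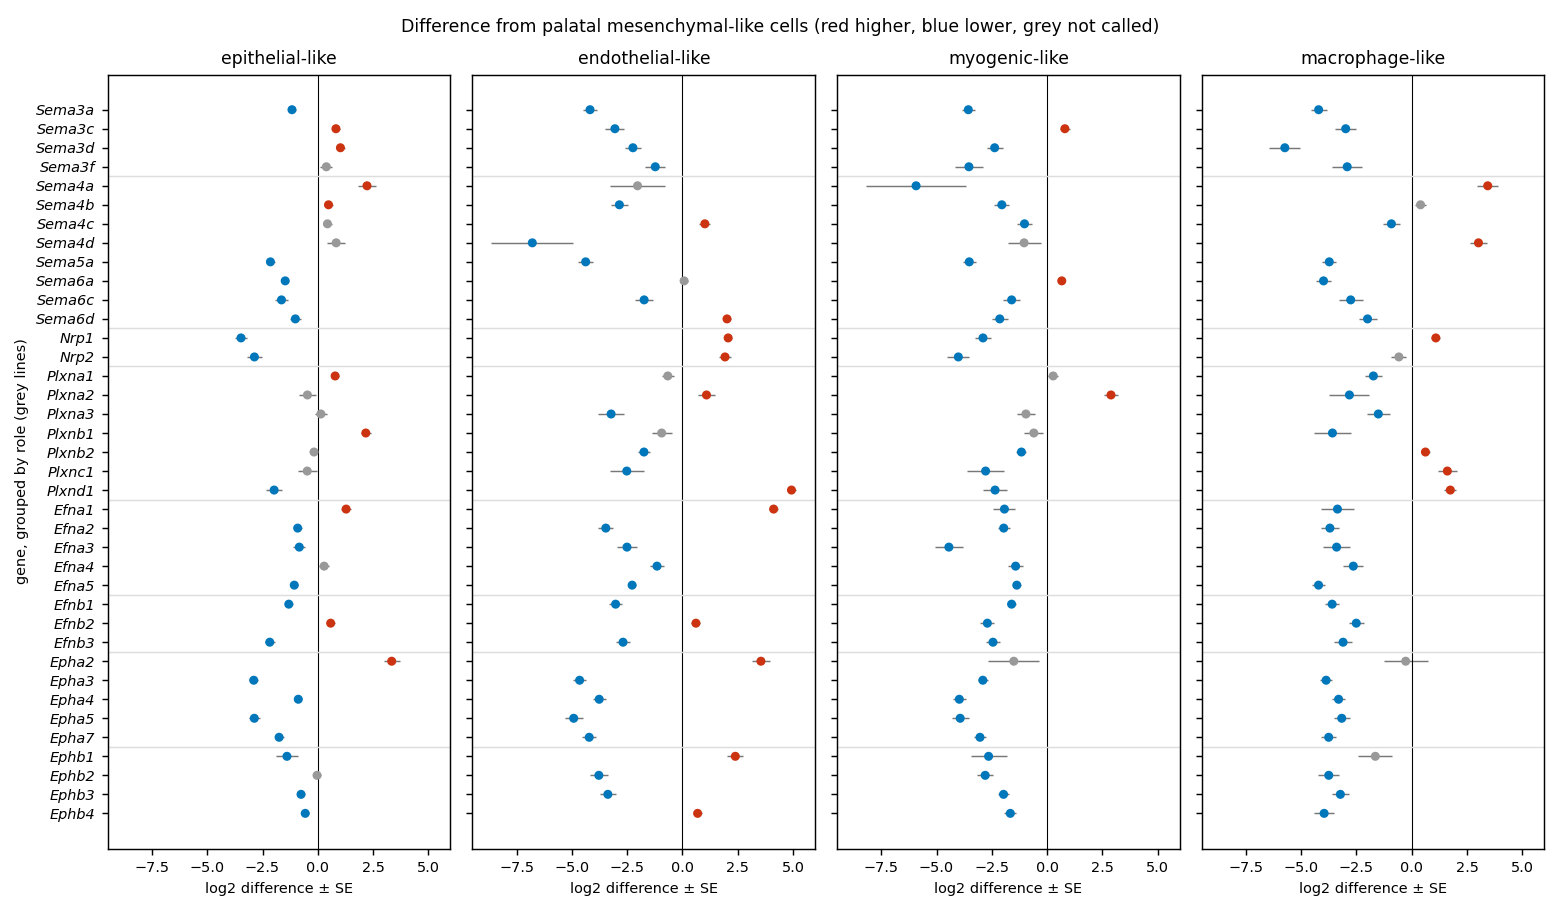
Log2 difference from palatal mesenchymal-like cells (x axis, bars SE) of the 38 fitted genes (y axis, grouped by role) in 4 types, from 3 libraries per type. Red points were called higher, blue lower and grey not called; ephrin-A genes other than Efna1 and the EphA genes other than Epha2 lie to the left in the endothelial-like panel, where Plxnd1 reaches 4.93.

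Endothelial-like cells showed 11 genes higher and 23 lower of the 38, beside 20.6% and 22.4% of all genes (43% either way). The median difference was -2.14 (log2), or -1.89 with Sema4d at its bound, against -0.07 over all genes. Plxnd1, the receptor through which semaphorins guide blood vessels, stood at 239.9, 317 and 228 CPM in endothelial-like and at 7.57, 8.46 and 9.31 CPM in the mesenchyme, a difference of 4.93 ± 0.18 (log2 ± SE, edgeR adjusted p = 1e-18). No library of one type came near those of the other.

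Efna1 stood at 176, 149.5 and 277 CPM against 10.4 to 15.4 CPM in the mesenchyme (4.12 ± 0.21, edgeR adjusted p = 1.3e-15), and its receptor gene Epha2 at 10.7, 18.2 and 18.6 CPM (3.55 ± 0.41). Ephb1 followed at 32.0, 44.2 and 18.1 CPM (2.39 ± 0.36). Nrp1 was at 192, 108 and 141 CPM against 47.5, 34.6 and 25.9 CPM (2.07 ± 0.18, edgeR adjusted p = 1.3e-10), and Nrp2, the neuropilin of lymphatic vessels and the receptor of semaphorin 3F, at 373, 430.2 and 285 CPM against 120.3, 50.2 and 149 CPM (1.93 ± 0.28).

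The arterial ligand Efnb2 and the venous receptor Ephb4 were both higher in endothelial-like cells, by 0.61 ± 0.20 and 0.69 ± 0.20 (log2 ± SE). Efnb2 overlapped between the types, with 42.7, 63.7 and 95.4 CPM against 31.2, 66.9 and 44.7 CPM, in control 2 it was the lower of the pair, and its call was lost without the mutant, with DESeq2 and with no library term (lowest difference 0.05). Ephb4 did not overlap, at 64.0, 65.0 and 51.9 CPM against 34.9 to 40.0 CPM, and its call was lost without control 2. Among the genes below the mesenchyme, Epha5 had 0, 0 and 7 UMIs and Epha3 differed by -4.65 ± 0.29. Sema4d had 0 UMIs in all 3 endothelial-like sums, at least 3.18-fold below the mesenchyme if 3 UMIs over the 3 libraries are taken as the limit, and its call was lost without the mutant and with cells of 2 gates kept. Neuronal markers summed to 21.3, 27.3 and 294 CPM in these cells, and their part in the values was not tested.

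Promoters are shown for the 3 genes furthest above the mesenchyme in endothelial-like cells among those with a single start in the RefSeq table (GRCm38.p6). Each is given by the 250 bases before that start. The 3 were picked for their difference in this type and did not go together elsewhere. In epithelial-like cells Epha2 was higher, and Plxnd1 and Ephb1 were lower. Capitals mark AGGAAG or CGGAAG on either strand, words that proteins of the ETS family can bind and that share their last letters.
Plxnd1, chr6:115995006-115995255, minus strand: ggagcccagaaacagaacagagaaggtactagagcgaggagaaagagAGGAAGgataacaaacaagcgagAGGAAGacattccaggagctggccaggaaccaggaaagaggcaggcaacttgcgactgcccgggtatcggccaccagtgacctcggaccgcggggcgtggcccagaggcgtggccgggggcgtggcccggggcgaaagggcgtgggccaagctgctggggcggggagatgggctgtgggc
Epha2, chr4:141300971-141301220, plus strand: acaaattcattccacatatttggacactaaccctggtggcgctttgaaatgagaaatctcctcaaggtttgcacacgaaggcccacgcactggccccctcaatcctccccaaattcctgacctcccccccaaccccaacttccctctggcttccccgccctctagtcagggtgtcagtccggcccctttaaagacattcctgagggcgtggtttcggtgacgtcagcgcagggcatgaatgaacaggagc
Ephb1, chr9:102354694-102354943, minus strand: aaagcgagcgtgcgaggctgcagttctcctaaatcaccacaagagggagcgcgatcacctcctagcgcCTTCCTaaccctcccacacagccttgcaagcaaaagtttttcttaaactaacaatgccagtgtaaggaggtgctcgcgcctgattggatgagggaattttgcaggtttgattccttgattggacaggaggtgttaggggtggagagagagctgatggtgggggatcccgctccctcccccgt
Plxnd1 held 2 such words, Ephb1 held 1 and Epha2 held 0. The table matched 47 of the 53 symbols with 61 promoters. Of the 14 promoters of genes higher in endothelial-like cells 5 held a word (35.7%), as did 10 of 28 promoters of genes lower there (35.7%) and 39.2% of all 32851 promoters.

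Myogenic-like cells were poor in these transcripts: 3 genes were higher and 30 lower of the 38, beside 17.3% and 26.9% of all genes (44.2% either way). The median difference was -2.09 (log2), or -2.01 with Sema4a at its bound, against -0.23 over all genes. Plxna2, a class A plexin, was furthest above the mesenchyme, at 47.4, 57.0 and 37.1 CPM against 4.74, 6.26 and 13.3 CPM in palatal mesenchymal-like cells (2.89 ± 0.30, edgeR adjusted p = 5.6e-09). The libraries did not overlap. Plxna2 binds class 6 semaphorins, and of these Sema6a was also higher in myogenic-like cells, at 103, 90.7 and 92.8 CPM against 57.2, 71.9 and 91.6 CPM (0.66 ± 0.17, edgeR adjusted p = 0.0018). The other class 6 semaphorins tested, Sema6c (-1.60 ± 0.38) and Sema6d (-2.14 ± 0.37), were called lower.

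The Sema6a levels of the mutant were nearly equal in both types, and the call was lost without control 1 (edgeR adjusted p = 0.10). Sema6b, which was too low for the fit, had its highest level here, at 32.7, 28.5 and 7.95 CPM against 1.13 to 2.22 CPM in the mesenchyme. Sema3c, at 49.8, 30.6 and 25.2 CPM against 25.9, 21.0 and 24.6 CPM, was called higher (0.80 ± 0.22, edgeR adjusted p = 0.004), but not in 5 of 13 alternatives, among them leaving out either control. Neuropilins were scarce: Nrp2, with 8.17, 2.11 and 5.30 CPM, was 4.01 ± 0.49 lower on the log2 scale. Efna3 was lower by 4.44 ± 0.62 (log2), with 1, 1 and 0 UMIs. Sema4a had 0 UMIs in all 3 myogenic-like sums, at least 1.66-fold below the mesenchyme with 3 UMIs over the 3 libraries as the limit, and its call was lost without control 2, without the mutant and with 4 markers for the gate.

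Macrophage-like cells showed 6 genes higher and 28 lower of the 38, beside 26.2% and 27.7% of all genes (53.9% either way), with a median of -2.95 (log2) against -0.08 over all genes. The class 4 semaphorins of immune cells led: Sema4a was at 15.2, 25.9 and 7.44 CPM against 1.58 to 1.93 CPM (3.44 ± 0.48, edgeR adjusted p = 7.5e-07) and Sema4d at 34.7, 16.3 and 19.1 CPM against 2.22, 4.06 and 3.74 CPM (3.02 ± 0.40). Of 7 plexins tested 3 were higher and 4 lower. Their receptors Plxnd1 and Plxnb2, and Plxnc1, the receptor of semaphorin 7A, were higher, Plxnb2 only with both controls in the fit. The semaphorin 4D receptor Plxnb1, with 0, 0 and 1 UMIs, was lower (-3.59 ± 0.86, edgeR adjusted p = 0.00075). Plxnd1 was at 19.5, 25.9 and 23.4 CPM (1.75 ± 0.27), and Plxnc1 at 10.8, 15.0 and 18.1 CPM against 5.66 to 6.23 CPM (1.61 ± 0.43, adjusted p = 0.0021 by edgeR, lost without control 2 at 0.070). Nrp1 was at 62.8, 64.0 and 52.1 CPM (1.09 ± 0.20). Sema3d, with 0, 0 and 1 UMIs, Efna5 and Sema3a were furthest below the mesenchyme, by 5.74 ± 0.70, 4.21 ± 0.28 and 4.21 ± 0.37 on the log2 scale. Of 38 other genes of these pathways 26 were tested. The list holds adaptors, GTPases and kinases that act below the receptors, and also ligands, surface partners and the protease gene Adam10. By edgeR 7 were higher and 6 lower in epithelial-like cells, beside 17.3% and 22% of all genes. The counts were 11 and 6 in endothelial-like cells, beside 20.6% and 22.4%, and 4 and 12 in myogenic-like cells, beside 17.3% and 26.9%. In macrophage-like cells they were 6 and 10, beside 26.2% and 27.7%.

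Glial-, neuronal-, mural- and chondrocyte-like cells fell under 10 cells in at least 1 library and were not tested, so their values are descriptions. Neuronal-like cells (13, 9 and 302) had the highest mean level of 10 of the 52 genes, and palatal mesenchymal-like cells that of 10 others. The share over all genes was not counted for any type. Some leads were narrow, as for Sema6c, with a mean of 16.7 CPM in neuronal-like cells and 16.6 CPM in the mesenchyme. In neuronal-like cells Epha5 stood at 205, 325 and 282 CPM, above every library of the other types. Plxna4, the plexin of class 3 semaphorins in neurons, stood at 111, 84.2 and 122 CPM. Epha10 had 0, 2 and 60 UMIs in these cells, and no more than 0.153 CPM in palatal mesenchymal-like cells.

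Glial-like cells (9, 24 and 111) were highest for 5 genes. Plxnb3 was at 20, 16 and 16.8 CPM, and 10 of its 27 UMIs over all barcodes lay in these cells. Sema3c stood at 79.9, 112 and 95 CPM, above every library of the other types (30.4 to 76.1 CPM in the chondrocyte-like cells next in order). Mural-like cells (5, 4 and 23), the pericytes and smooth muscle of vessels, were highest for Sema5b, at 41.5, 37.2 and 28.2 CPM against 7.80, 12.3 and 8.55 CPM in the mesenchyme, and for Plxnb2, at 180.0, 112 and 77.5 CPM. With so few cells, 1 UMI is worth 13.8 and 37.2 CPM in the mural-like sums of the 2 controls, and the Sema5b value of control 2 is 1 UMI.

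The second comparison asked whether perimysial-like cells differ in these genes. They are named for the mesenchyme next to the forming muscle, which the study set against the rest of the palatal mesenchyme. They were the palatal mesenchymal-like cells with at least 2 UMIs of Hic1 and Ebf2 in sum, 257, 160 and 338 cells. Such a gate does not show where a cell lay. The gate favours deep cells: the median was 8810, 7497 and 9901.5 UMIs against 7955, 5177 and 5445 in the others. Of the perimysial-like cells 38.91%, 38.75% and 40.83% also met the midline gate, against 36.4%, 41.48% and 25.94% of all palatal mesenchymal-like cells. In an edgeR fit over 12811 genes with library as a term, 46 of the 52 genes were tested, 6 were higher and 2 lower, beside 3.49% and 2.15% of all genes (5.64% either way), with a median difference of 0.11 (log2) against 0.01 over all genes. The 6 not tested were Epha1, Epha8, Epha10, Plxnb3, Sema3g and Sema7a.

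Nrp1 was higher in perimysial-like cells of each library, at 84.3, 57.9 and 49.6 CPM against 37.0, 32.0 and 22.1 CPM in the other palatal mesenchymal-like cells. The difference was 0.997 ± 0.118 (log2 ± SE, edgeR adjusted p = 8.6e-06), and the groups did not overlap. Plxna2, at 6.57, 15.1 and 20.1 CPM against 4.22, 5.26 and 12.2 CPM, was higher in each library but overlapped between the groups (0.79 ± 0.21, edgeR adjusted p = 0.025). Sema5b (0.76 ± 0.19), Ephb3 (0.46 ± 0.11), Ephb2 (0.43 ± 0.12) and Plxnb2 (0.42 ± 0.11) were the other genes called higher, with edgeR adjusted p from 0.015 to 0.031.

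Ephb2 and Ephb3 bind B-type ephrins, and their ligand genes were not called: Efnb1 was at 78.8, 92.7 and 80.4 CPM in perimysial-like and at 81.9, 84.2 and 66.6 CPM in the other cells. The secreted semaphorins Sema3a and Sema3d were lower. Sema3a fell from 89.2, 75.0 and 77.2 CPM in the other cells to 53.6, 63.1 and 61.0 CPM, without overlap (-0.54 ± 0.11, edgeR adjusted p = 0.0055). Sema3d was at 13.8, 15.1 and 30.6 CPM against 22.1, 34.8 and 41.8 CPM (-0.77 ± 0.15, edgeR adjusted p = 0.0026), lower in each library, with the mutant's perimysial-like level inside the range of the others.

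**Figure D3:**
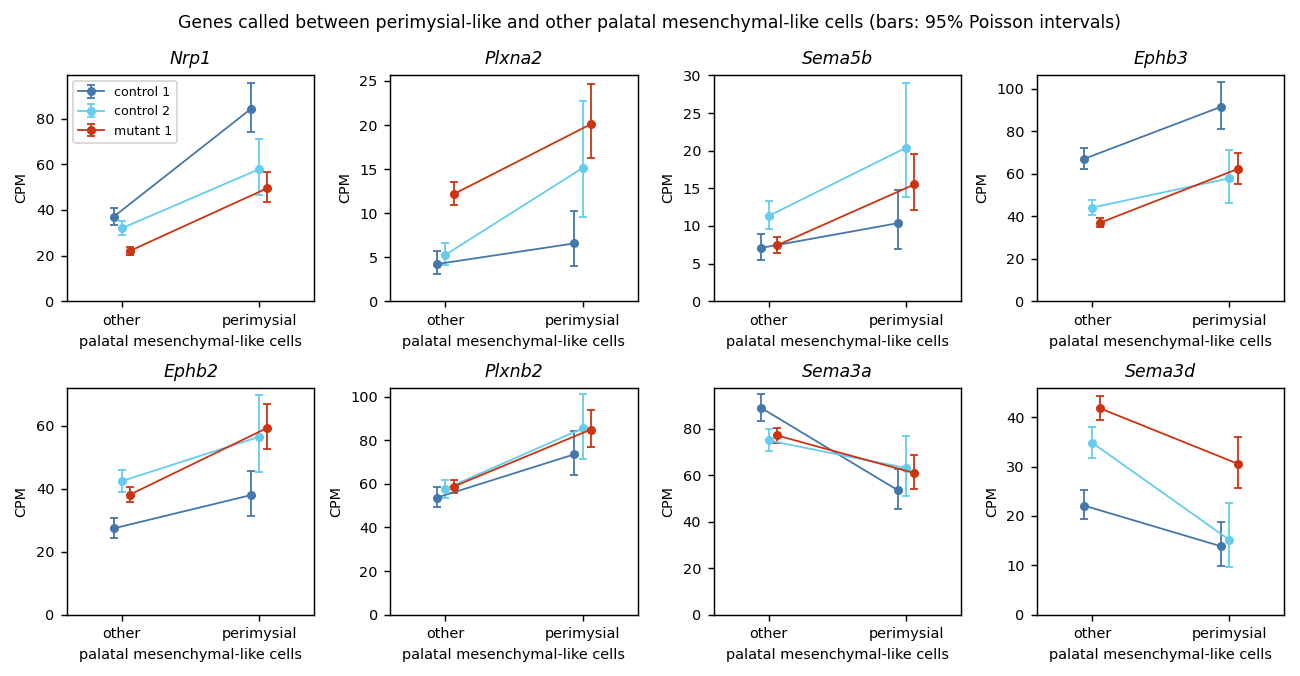
CPM (y axis) in the other palatal mesenchymal-like cells and in perimysial-like cells of each library, with 95% Poisson intervals, for the 8 genes called. Nrp1 rises in every library, from 22.1 to 37.0 CPM up to 49.6 to 84.3 CPM, and Sema3a and Sema3d are lower in every library.

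Endothelial markers, whose cells are rich in Nrp1, summed to 36.6, 48.0 and 32.8 CPM in perimysial-like and to 37.5, 25.9 and 20.4 CPM in the other cells, and their part in the Nrp1 difference was not tested. Without the library term 0 of the 46 genes passed by edgeR (5 at an unadjusted p under 0.05). DESeq2 called 3, and edgeR called 4 without control 1. Nrp1 was called in 12 of 13 alternatives, all but the fit with no library term, and Sema3d likewise, whereas Ephb2 was lost in 6 of 13, Plxna2 and Plxnb2 in 5, Ephb3 in 4, Sema5b in 3 and Sema3a in 2. The alternatives with 2 or 4 markers for a lineage gate, or with cells of 2 gates kept, leave the perimysial-like and other mesenchymal sums unchanged. They could not alter these calls. Of 38 other genes of these pathways 33 were tested, and edgeR called 5 higher and 0 lower, beside 3.49% and 2.15% of all genes. They were the collapsin response mediators Crmp1 (1.16 ± 0.33) and Dpysl3 (0.51 ± 0.12) and the GTPase Rras (0.73 ± 0.17). Farp1 (0.51 ± 0.13) and the kinase Fyn (0.50 ± 0.12) were the others. All 5 act below plexins or Eph receptors. Against palatal mesenchymal-like cells, Crmp1, Rras and Fyn were also higher in endothelial-like cells, by 4.77, 2.46 and 1.46 (log2). Dpysl3 was not called there and Farp1 was lower. The part of endothelial RNA in these differences was not tested, and no range over the alternatives is given for them.

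Between the genotypes the mutant is 1 library, so no test, SE or p-value is given. A gene is described as past the fold rule where the mutant's log2 CPM differed from the mean of the 2 controls by at least 1.5-fold, in the same direction from each control and by more than the controls differed, among genes with a mean of 10 CPM and 20 UMIs. The controls differed from each other by at least 1.5-fold for 10 of the 29 of these genes that reached the floor in palatal mesenchymal-like cells, and by up to 1.26 on the log2 scale. Of the 52 genes, 23 lay under the floor in palatal mesenchymal-like, 19 in perimysial-like, 39 in myogenic-like and 23 in epithelial-like cells. An effect of the deletion cannot be told apart from a difference between libraries.

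In palatal mesenchymal-like cells 0 genes were higher and 2 lower of the 29 at the floor, beside 1.6% and 4.23% of all genes. Sema4b, a membrane semaphorin, was at 24.4, 40.0 and 17.0 CPM (log2 ratio -0.88), and Nrp1 at 47.5, 34.6 and 25.9 CPM (-0.65). The 95% Poisson intervals of the mutant, 15.6 to 18.5 CPM for Sema4b and 24.2 to 27.7 CPM for Nrp1, lay below those of both controls. Nrp1 no longer passed with TMM factors or without control 1, and Sema4b no longer passed without control 2. With TMM factors, 3 genes were higher and 1 lower. The share of palatal mesenchymal-like cells in the perimysial gate, where Nrp1 is higher, was 18.79%, 6.835% and 7.664%, and its part in the Nrp1 values was not tested. Outside the gate Nrp1 was at 37.0, 32.0 and 22.1 CPM. Efna5 was close to the limit, at 149, 152 and 105 CPM (-0.51), with almost equal controls.

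Nrp2, Epha5 and Sema3d differed by more than 1.5-fold from the mean of the controls in palatal mesenchymal-like cells but by less than the controls differed. Nrp2 was at 120.3, 50.2 and 149 CPM, so that most of its spread lay between the controls. Osteogenic-gate cells, where Nrp2 was highest at 229.7, 180.1 and 217.7 CPM, made up 13.3%, 3.332% and 15.85% of the palatal mesenchymal-like cells. The part of these cells in the Nrp2 values was not tested.

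Perimysial-like cells of the mutant had 5 genes higher and 0 lower of the 33 at the floor, beside 5.52% and 6.16% of all genes. The median log2 ratio was 0.26 over the 33 and -0.01 over all genes. Epha5 stood at 31.1, 44.7 and 95.5 CPM (log2 ratio 1.36), and the mutant's 95% interval of 86.7 to 104.9 CPM lay above those of both controls. Nrp2 was at 117.5, 65.1 and 187 CPM (1.10) and Sema3d, a secreted ligand of neuropilins, at 13.8, 15.1 and 30.6 CPM (1.08). Sema6a, at 49.4, 72.4 and 108.6 CPM, and Sema4g, at 8.29, 8.55 and 15.3 CPM, both had a ratio of 0.86.

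**Figure D4:**
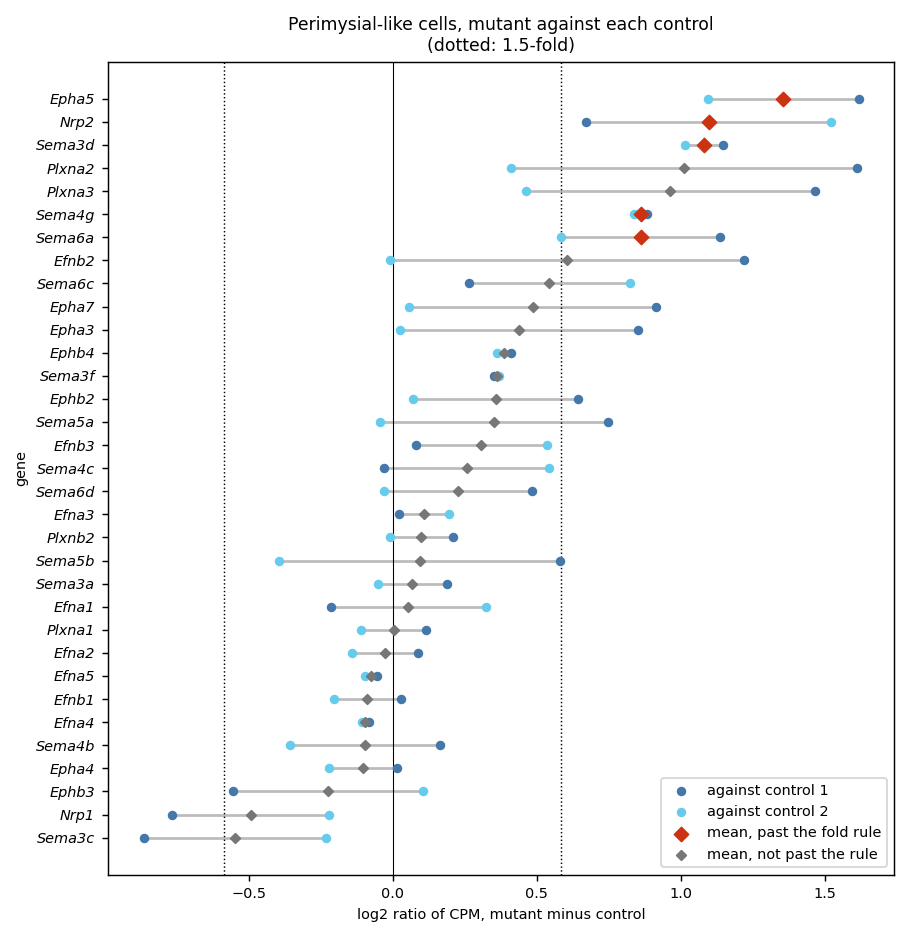
Log2 ratio of CPM of the mutant to control 1 and to control 2 (blue points, joined by grey lines) and their mean (diamonds) for the 33 genes at the floor in perimysial-like cells. Epha5, Nrp2, Sema3d, Sema4g and Sema6a (red) lie above 1.5-fold (dotted line) and above 0 against both controls.

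The same cells differ in what else they hold. Of the mutant's perimysial-like cells 39.05% also met the tendon gate and 19.53% the osteogenic gate, against 10.51% and 7.782% in control 1 and 16.88% and 3.75% in control 2. With these cells left out, an alternative added after the values were seen, Epha5 (0.92), Nrp2 (1.09) and Sema3d (1.25) still passed the rule, whereas Sema6a (0.37) and Sema4g (0.04) did not. Sema4g also failed the rule with the mean over cells (0.55) and with the deepest 5% of cells left out (0.81). Chondrocyte markers summed to 45.3, 75.6 and 153 CPM, and their part in the ratios was not tested. Hic1, a gene of the perimysial gate itself, was at 188.7, 136.8 and 68.0 CPM in these cells. The part of this difference in the ratios was not tested. Without control 2, 13 genes were higher and 2 lower. With 1 control the rule is looser, since there is no gap between controls to exceed and no second control to match in direction.

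Epha5 was also above both controls in the other gates of the mesenchyme, at 20.1, 40.0 and 70.5 CPM in osteogenic, 23.7, 61.6 and 108.8 CPM in tendon and 37.2, 64.6 and 105.3 CPM in midline cells. Nrp2 was above both controls in the tendon (128, 59.7 and 177.5 CPM) and midline gates (98.2, 36.5 and 143 CPM), and between them in the osteogenic gate. Sema3d was above both controls in perimysial, midline and, narrowly, tendon cells (20.5, 38.9 and 40.0 CPM) and between them in osteogenic cells. Nrp1, the other neuropilin, had its lowest level in the mutant in perimysial-like cells, 84.3, 57.9 and 49.6 CPM, a log2 ratio of -0.49 that did not pass the rule.

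**Figure D5:**
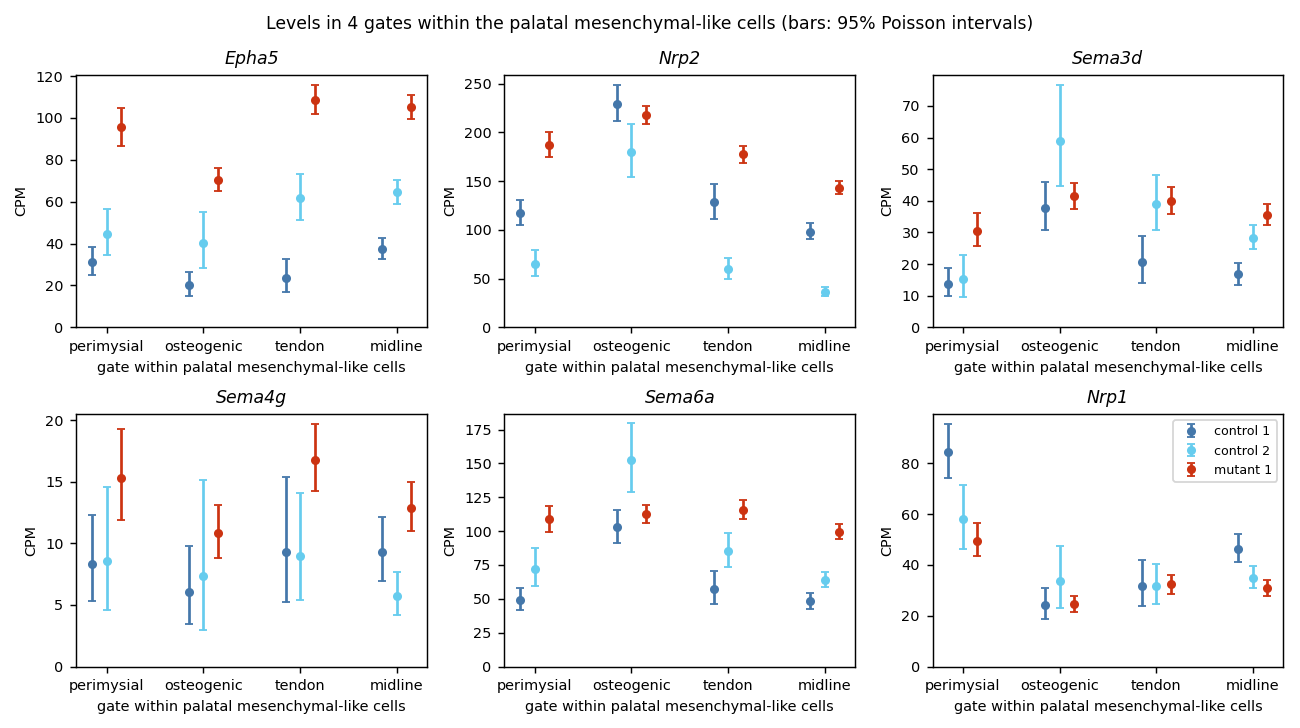
CPM with 95% Poisson intervals (y axis) of 6 genes in 4 overlapping gates within the palatal mesenchymal-like cells (x axis) of control 1, control 2 and the mutant. Epha5 is highest in the mutant in each gate, from 70.5 to 108.8 CPM, whereas Nrp2 in osteogenic cells lies between 180.1 and 229.7 CPM in all 3 libraries.

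Other genes of these pathways passed the rule in the mesenchyme and in other types of the mutant. Dpysl3, a collapsin response mediator that acts below semaphorin receptors, was at 40.6, 42.4 and 21.2 CPM in palatal mesenchymal-like and at 55.6, 66.4 and 27.5 CPM in perimysial-like cells (log2 ratios -0.97 and -1.14). Rnd3, a GTPase of the family that binds plexins, was at 79.6, 88.3 and 50.6 CPM and at 114.4, 110.5 and 54.2 CPM (-0.73 and -1.05). Rras, a substrate of the plexin GAP domain, was higher in both (0.66 and 0.60). Of the 38 genes 19 were at the floor in each type, and only these 3 were past the rule. Over all genes 5.83% were past it in palatal mesenchymal-like and 11.7% in perimysial-like cells. Rnd3 also passed in myogenic-like cells (47.4, 47.5 and 27.8 CPM, -0.77), and Rras in endothelial-like cells (42.7, 41.6 and 88.6 CPM, 1.07). In myogenic-like cells 2 were higher and 4 lower of 16 at the floor, beside 5.83% and 12.3% of all genes. In epithelial-like cells 0 were higher and 3 lower of 20, beside 1.39% and 12.4%.

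By the study's account Osr2-Cre is not active in myogenic cells, which are compared here as neighbours of the mutant mesenchyme. Of 13 genes at the floor in myogenic-like cells 1 was higher and 2 lower, beside 5.83% and 12.3% of all genes. Sema6b, a membrane semaphorin and ligand of class A plexins, was at 32.7, 28.5 and 7.95 CPM, a log2 ratio of -1.94 that rests on 40, 27 and 6 UMIs. The mutant's 95% interval of 2.92 to 17.3 CPM lay below both controls, and Sema6b was past the rule in all 12 alternatives. Among these, the floor of 5 CPM can only add genes. Efna5 was at 57.2, 44.3 and 29.2 CPM (-0.79), and Ephb4 at 7.35, 8.44 and 14.6 CPM (0.89), with 9, 8 and 11 UMIs and overlapping intervals. Ephb4 was past the rule in 6 of 12 alternatives, with a lowest ratio of 0.28, and Efna5 in 11, failing with cells of 2 gates kept (-0.53). Plxna2, the plexin that marked these cells, was at 47.4, 57.0 and 37.1 CPM (-0.49) and did not pass.

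Myogenic markers also differed between these libraries, not all in the same direction. The differentiation factor Myog was at 1999, 1463 and 1303 CPM, the fusion gene Mymk at 219, 148 and 123 CPM, and Pax7, which marks progenitors, at 31.9, 55.9 and 80.9 CPM, with the whole list of 8 at 6320, 4652 and 3744 CPM and none at 0. Myf5, another progenitor marker, was at 69.4, 63.3 and 57.0 CPM, Myod1 at 354, 305 and 245 CPM and Actc1 at 3394, 2213 and 1687 CPM. Msc (120, 242 and 137 CPM) and Chrna1 (132, 163 and 111 CPM) were highest in control 2. The part of these markers in the Sema6b values was not tested.

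In epithelial-like cells 1 gene was higher and 4 lower of the 29 at the floor, beside 1.39% and 12.4% of all genes, and the median log2 ratio of all genes was -0.12. Sema3f, a secreted ligand of neuropilin-2, was at 31.3, 20.8 and 7.56 CPM (log2 ratio -1.76), with 64, 31 and 14 UMIs. Sema4b was at 39.1, 53.8 and 24.8 CPM (-0.88). Both passed the rule in all 12 alternatives, and the mutant's 95% interval lay below both controls for Sema3f (4.13 to 12.7 CPM) and reached the 31.0 CPM lower bound of control 1 for Sema4b (18.2 to 33.1 CPM).

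Ephb3, at 43.5, 31.6 and 23.8 CPM (-0.64), and Epha1, at 14.7, 12.1 and 8.64 CPM (-0.62), were also lower, but with TMM factors 3 genes were higher and 2 lower and neither passed, and with cells of 2 gates kept the Ephb3 ratio was 0.18. Ephb3 passed in 7 of 12 alternatives and Epha1 in 5. Nrp2, the receptor of Sema3f, was at 12.7, 11.4 and 20.5 CPM (0.77). It no longer passed with 4 markers for the gate, with the deepest 5% of cells left out or with the stricter marker probability, and it stood at 120.3, 50.2 and 149 CPM in the palatal mesenchymal-like cells of the same libraries. Palatal mesenchymal markers summed to 98.8, 127 and 122 CPM in epithelial-like cells, none of the 7 at 0, against 1168 to 1286 CPM in the mesenchyme, and their part in the Nrp2 value was not tested.

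In endothelial-like cells, which were not part of the planned comparison, 2 genes were higher and 2 lower of the 18 at the floor, beside 4.89% and 10.7% of all genes. Efna1 was at 176, 149.5 and 277 CPM (log2 ratio 0.77) and Efnb2 at 42.7, 63.7 and 95.4 CPM (0.87). Ephb1 was at 32.0, 44.2 and 18.1 CPM (-1.06) and Plxna1, a class A plexin, at 26.7, 15.6 and 11.9 CPM (-0.78), where the controls differed by nearly as much (0.77). Control 1 gave 33, 8, 6 and 5 UMIs of these genes. The neuronal markers at 21.3, 27.3 and 294 CPM move with the genotype in these cells, and their part in the values was not tested.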

How the data were processed

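Soft palate cells of E14.5 mouse embryos in 3 libraries were sequenced with 10x 3' chemistry, and the authors deposited raw counts, UMIs per gene and cell. The matrix headers name Cell Ranger 4.0.0 and the submitters' processing notes 3.1.0 with mm10, and the annotation release is not given in the sources used here. Barcodes needed at least 500 detected genes and no more than 10% of UMIs from mitochondrial genes. A cell entered a lineage with at least 3 markers above the level of free RNA (Poisson probability 0.01), and the palatal mesenchyme with at least 2 mesenchymal markers. This rule was set after cell numbers and marker levels had been seen. Cells of 2 lineages were left out, and no doublet caller was run.

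Counts were summed per type and library. Types with at least 10 cells in each library entered 1 fit by edgeR 4.0.16 (quasi-likelihood, R 4.3.3) with library as a term. Erythroid-like cells entered it, but no contrast of them was planned or made. The SE printed with an edgeR difference is the size of the difference divided by the square root of the F statistic of its test. It is thus derived from the test and adds nothing independent of the p-value. Poisson intervals (95%, exact) cover counting error only. For a fit simulated on endothelial-like against palatal mesenchymal-like cells, with 9448 genes tested, 176 of 177 changed genes (log2 change 2) were recovered and 9 unchanged genes were called. The simulation drew every type from 1 mean profile with 1 common spread (dispersion 0.018), no library effect and 200 changed genes. The real types and libraries differ more, so the recovery does not measure the accuracy of the real calls. DESeq2 1.42.0 served as an alternative. Members and lists were chosen with earlier results of these data known. Genes were named as the 5 furthest above and 3 furthest below among those called in each contrast, and all past the fold rule, with receptor or ligand partners beside them. A stricter marker probability (0.001) and leaving out perimysial-like cells of the osteogenic or tendon gate were added after the data had been seen. Python 3.11.15, numpy 2.4.6, scipy 1.17.1 and pandas 2.3.3 were used.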

Additional observations from a re-analysis of the deposited data

How the results depend on the processing

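In the contrasts of cell types, no gene of the 52 named with its difference and checked changed sign in the alternatives that fitted it (9 or 10 for Sema4a and macrophage-like Plxnc1, 13 for the others). Plxnb1 in macrophage-like cells, and Sema6c and Sema6d in myogenic-like cells, were named with a difference but not checked. The other genes of these pathways were not part of this check. Epithelial-like calls ranged from 20 to 34, endothelial-like from 30 to 44, myogenic-like from 29 to 38 and macrophage-like from 29 to 39. For perimysial-like against other palatal mesenchymal-like cells the 8 calls became 3 with DESeq2, and 4 to 7 with 1 library left out. The library term is the replicate block of these fits, and without the block 0 genes were called. No paired comparison of the genotypes was possible, since the mutant is 1 library and its label gives no pairing with either control. Genes past the fold rule in palatal mesenchymal-like cells, 2 as reported, became 4 with TMM factors, 5 with the mean over cells, 4 with a floor of 5 CPM, 4 without the 5% deepest cells and 3 to 5 with 1 control left out. In perimysial-like cells 5 became 3 without cells of the osteogenic or tendon gate and 7 to 15 with 1 control left out. In myogenic-like cells 3 became 5 with a floor of 5 CPM and 4 to 7 with 1 control left out. In epithelial-like cells 5 became 3 with at least 2 markers and 7 to 13 with 1 control left out, and the ratio of Ephb3 reversed to 0.18 with cells of 2 gates kept. With 1 control left out the rule is looser, since it has no gap between controls to exceed and no second control to match in direction. The floor of 5 CPM can only add genes in any type. The alternatives with 2 or 4 markers, or with cells of 2 gates kept, leave the palatal mesenchymal-like and perimysial-like sums unchanged. The cause of the other shifts was not tested. Glial-, neuronal-, mural- and chondrocyte-like contrasts were not run, with under 10 cells in a library. With 18 endothelial-like cells in control 1, 1 UMI is worth 5.33 CPM there.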
